A study of Homo sapiens with 4 samples.

Results

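The 51 genes described here encode proteins that repair DNA double-strand breaks and interstrand crosslinks, and they were followed through 4 nucleosome maps of BE(2)C cells, a human neuroblastoma line that carries MYCN amplified. They were taken by name from a list chosen with earlier results of these data known. All 51 were found among 20162 protein-coding genes of the annotation. By role they comprise 11 recombination mediators and paralogs, 4 genes of end resection, 9 of junction dissolution and resolution, 11 of the Fanconi anaemia pathway, 4 of the SMC5/6 complex, 4 checkpoint kinases and 8 genes of end joining.

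Cells received either a control siRNA (2 libraries) or an siRNA against MYCN (2 libraries), and all 4 carry the genotype label wild type. The labels give 80 nM siRNA and 6 h of incubation with the transfection mix, whereas the methods of the study state a lower final concentration. Chromatin was crosslinked and cut with micrococcal nuclease (MNase), which digests linker DNA, and the protected mononucleosomal fragments were sequenced as read pairs. The question was whether nucleosomes in the promoters of these genes change when MYCN is knocked down. The study calls the libraries of a group biological replicates, and the labels do not say whether they came from separate cultures, so the spread behind the p-values may be partly technical.

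A double-strand break can be rejoined directly by end joining, in which Ku binds the ends and recruits DNA-PK and a ligase complex. It can also be repaired by homologous recombination, in which the ends are cut back, an intact copy of the sequence is invaded with the help of BRCA2 and other mediators, and the joined molecules are taken apart by helicase and nuclease complexes. The Fanconi anaemia proteins recognise and unhook crosslinks between the strands, and the kinases ATM and ATR signal the damage. Rapidly dividing tumour cells lean on these pathways during replication. At an active promoter, a stretch without nucleosomes over the transcription start site (TSS) is usually followed by a well positioned first nucleosome, called +1.

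The depth of the maps limits what each gene can show. The lists held 10527010 nucleosomes and 147726171 reads in control replicate 1, and 12120711 nucleosomes and 242544884 reads in control replicate 2. MYCN knockdown replicate 1 held 10677252 nucleosomes and 147370973 reads, and replicate 2 held 12178724 nucleosomes and 239257113 reads. A typical nucleosome rested on 12 reads in both replicate 1 libraries and on 18 in both replicate 2 libraries, and nucleosomes under 6 reads are absent from the lists. The MYCN promoter held between 89.5 and 118.4 times the reads of the median promoter in the 4 libraries, which checks the cell line and not the knockdown, since MNase-seq measures no transcripts.

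The stretches directly upstream of 4 start sites are printed here, because the results below turn on whether a nucleosome sits on them. They are read from GRCh37 (hg19) on the strand of the gene, 5′ to 3′, and the last base adjoins the TSS. Capitals mark CCAAT or its complement ATTGG, and GGGCGG or its complement CCGCCC (the GC box). No stretch contains CACGTG, the E-box bound by MYC proteins. SLX4 is shown because its window was the only one of the 51 that went from filled to empty, RAD51D because its promoter had the lowest change in reads, RAD52 because it had one of the widest gaps, and BLM as a promoter without a nucleosome in the window in any library. SLX4 and RAD51D are printed only as far as the nearest annotated exon upstream.
SLX4, chr16:3661608-3661728, minus strand: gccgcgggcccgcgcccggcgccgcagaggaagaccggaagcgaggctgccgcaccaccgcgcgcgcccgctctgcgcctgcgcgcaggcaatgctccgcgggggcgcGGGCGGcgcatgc
RAD51D, chr17:33446880-33447040, minus strand: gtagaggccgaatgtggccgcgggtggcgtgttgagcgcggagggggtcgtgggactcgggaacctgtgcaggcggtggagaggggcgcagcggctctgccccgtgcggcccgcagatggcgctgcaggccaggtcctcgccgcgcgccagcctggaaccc
RAD52, chr12:1058861-1059060, minus strand: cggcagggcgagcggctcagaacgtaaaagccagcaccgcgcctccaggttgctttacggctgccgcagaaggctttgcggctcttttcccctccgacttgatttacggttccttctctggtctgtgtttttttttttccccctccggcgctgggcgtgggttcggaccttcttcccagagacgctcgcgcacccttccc
BLM, chr15:91260377-91260576, plus strand: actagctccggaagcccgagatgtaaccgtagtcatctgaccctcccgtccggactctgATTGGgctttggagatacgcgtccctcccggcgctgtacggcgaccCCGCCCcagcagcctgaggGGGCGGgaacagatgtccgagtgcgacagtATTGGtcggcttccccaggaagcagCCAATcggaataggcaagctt

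The promoters of the repair genes had properties in common that the list did not use. In the 300 bp around the TSS (250 bp before it and 50 bp after), the ratio of observed to expected CpG was above 0.6 in 50 of 51 genes (98.0%), against 66.9% of all protein-coding genes, and the exception was CHEK1, the effector kinase downstream of ATR, with 0.507. The median ratio was 0.933 against 0.773, while the median GC content was 64.3% against 63.7%. A start site on the opposite strand lay within 1 kb upstream of 26 of 51 genes (51.0%), against 21.6% of all genes. Among them are NBR2 beside BRCA1, NPAT beside ATM, MCM4 beside PRKDC and DNASE1 beside SLX4. Over all genes with such a start site, the CpG ratio was above 0.6 in 91.4%. GEN1 and SMC6 share 1 promoter region, with their canonical starts 328 bp apart, so some nucleosomes count for both.

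Sequence motifs in the 200 bp upstream of the TSS were searched on both strands. CCAAT was found in 21 of 51 genes (41.2%) against 30.2% of all genes, and the GC box (GGGCGG) in 27 of 51 (52.9%) against 55.9%. CACGTG occurred there in 1 gene (1.96%) against 6.94%. In the 300 bp around the TSS, CACGTG occurred in 3 of 51 genes (5.88%) against 8.74% of all genes, at -48 bp in BRCA2, at -1 bp in RAD50 and at 15 bp in FANCC. BLM held 3 CCAAT and 2 GC box matches in its 200 bp, and the RAD52 stretch held none of the 3 motifs.

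Most repair genes had an empty window around the TSS in these cells. The NFR (nucleosome-free region) was looked for in a window that reached 200 bp upstream and 50 bp downstream of each TSS, and the window was called empty when no nucleosome lay with at least 80% of its length inside it. The window was empty in 41 of 51 genes (80.4%) in control replicate 1, in 39 (76.5%) in control replicate 2, in 48 (94.1%) in MYCN knockdown replicate 1 and in 36 (70.6%) in MYCN knockdown replicate 2. Over the 20078 promoters with reads within 1 kb of the TSS in every library, the shares were 58.4%, 52.6%, 60.3% and 52.1%, in the same order. The repair genes were thus emptier than all promoters in each library, and knockdown replicate 1 had the most empty windows among the repair genes. The highest and the lowest share came from the same group, so the shares of the groups overlapped at these unequal depths.

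In all 4 libraries the window was empty in 29 of 51 repair genes (56.9%), against 32.3% of all promoters, and it was filled in all 4 in only 1, FANCC, against 19.9% of all promoters. Of the others, 10 genes were empty in 3 libraries, 7 in 2 and 4 in 1. The 40 nucleosomes that filled a window held a median of 8.5 reads (6 to 24), and 26 of them held under 10 reads (65.0%), whereas the median +1 nucleosome of these genes held 19 reads. Over all promoters, 23.4% of such nucleosomes held under 10 reads. When the libraries were thinned to equal depth, the window was empty in 41 and 43 of 51 genes in the controls and in 48 and 46 in the knockdown libraries. The counts of the groups thus did not overlap at this setting, and the knockdown libraries had more empty windows. With a minimum of 10 reads per nucleosome, the counts were 49 and 46 in the controls and 49 and 46 in the knockdown libraries. When 50% of a nucleosome in the window sufficed to fill it, they were 31 and 32 against 37 and 27. The thinned lists held 147318864 and 141023334 reads in the controls and 147370973 and 141308278 in the knockdown libraries. At equal depth the shares of all promoters were 58.4% and 61.0% in the controls and 60.3% and 60.6% in the knockdown libraries. Those shares overlapped. With a minimum of 10 reads the shares of all promoters were 70.1% and 61.5% against 71.8% and 61.3%. With 50% sufficing they were 39.9% and 32.9% against 42.0% and 32.4%. None of these counts has a test.

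**Figure D1:**
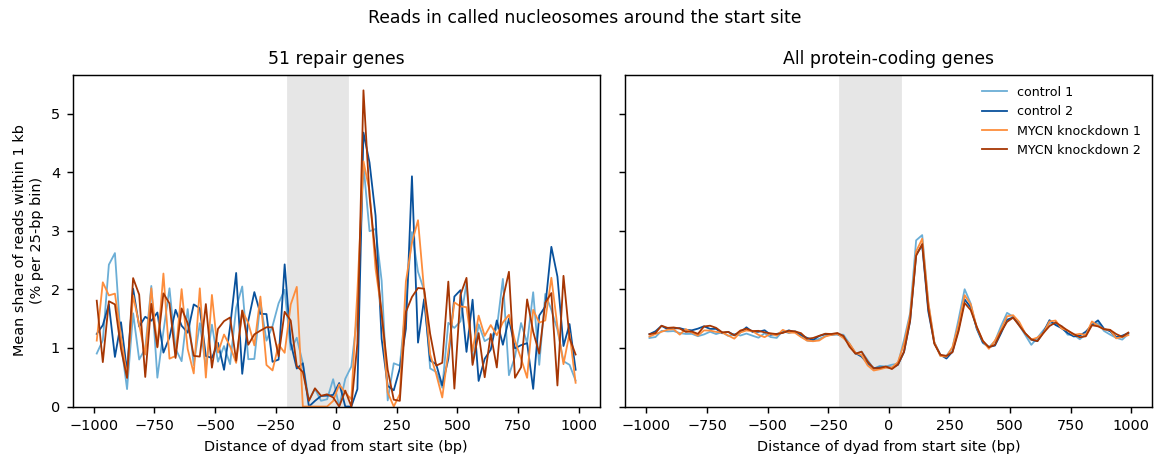
Mean share of the reads within 1 kb of the TSS (% per 25-bp bin, y axis) by distance of the dyad from the TSS (bp, x axis), for the 51 repair genes on the left and all protein-coding genes on the right, with 1 line per library and the window around the TSS (-200 to 50 bp) shaded. In the repair genes the lines fall near 0 over the TSS in all 4 libraries and peak in the bin from 100 bp, at 4.12% to 5.40%, while all genes keep at least 0.614% in every bin.

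Only SLX4, the scaffold that gathers the nucleases MUS81-EME1, SLX1 and XPF-ERCC1, met the rule of a window filled in both controls and empty in both knockdown libraries. A nucleosome lay at -104 bp with 7 reads in control replicate 1 and at -100 bp with 8 reads in control replicate 2, and none lay between -272 bp and the +1 nucleosome in the knockdown libraries. Formation of an empty window was therefore seen in 1 of the 35 repair genes that were empty in both knockdown libraries (2.86%), against 5.64% of all promoters. None of the 34 repair genes empty in both controls was filled in both knockdown libraries, against 5.25% of all promoters. The 2 shares rest on 1 and 0 repair genes. Over all genes with a start site on the opposite strand within 1 kb upstream, 2.48% formed and 2.30% were lost. Over all genes without one, the shares were 7.07% and 6.60%. These comparisons have no test. The call on SLX4 rests on nucleosomes near the deposited minimum of 6 reads, and with a minimum of 10 reads SLX4 no longer met the rule.

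Windows of the repair genes changed state between replicates as well as between groups. From control replicate 1 to knockdown replicate 1, a nucleosome appeared in the window of 1 gene and left that of 8, and from control replicate 2 to knockdown replicate 2 it appeared in 7 and left 4. Between the 2 controls, from replicate 1 to 2, it appeared in 7 and left 5, and between the knockdown libraries it appeared in 13 and left 1. Over all promoters the corresponding counts were 2185 and 2560, 2749 and 2648, 3267 and 2109, and 3540 and 1906. In both sets of promoters the largest number of new nucleosomes was seen between libraries of the same treatment that differ in depth, and the part of depth in these changes was not tested.

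**Figure D2:**
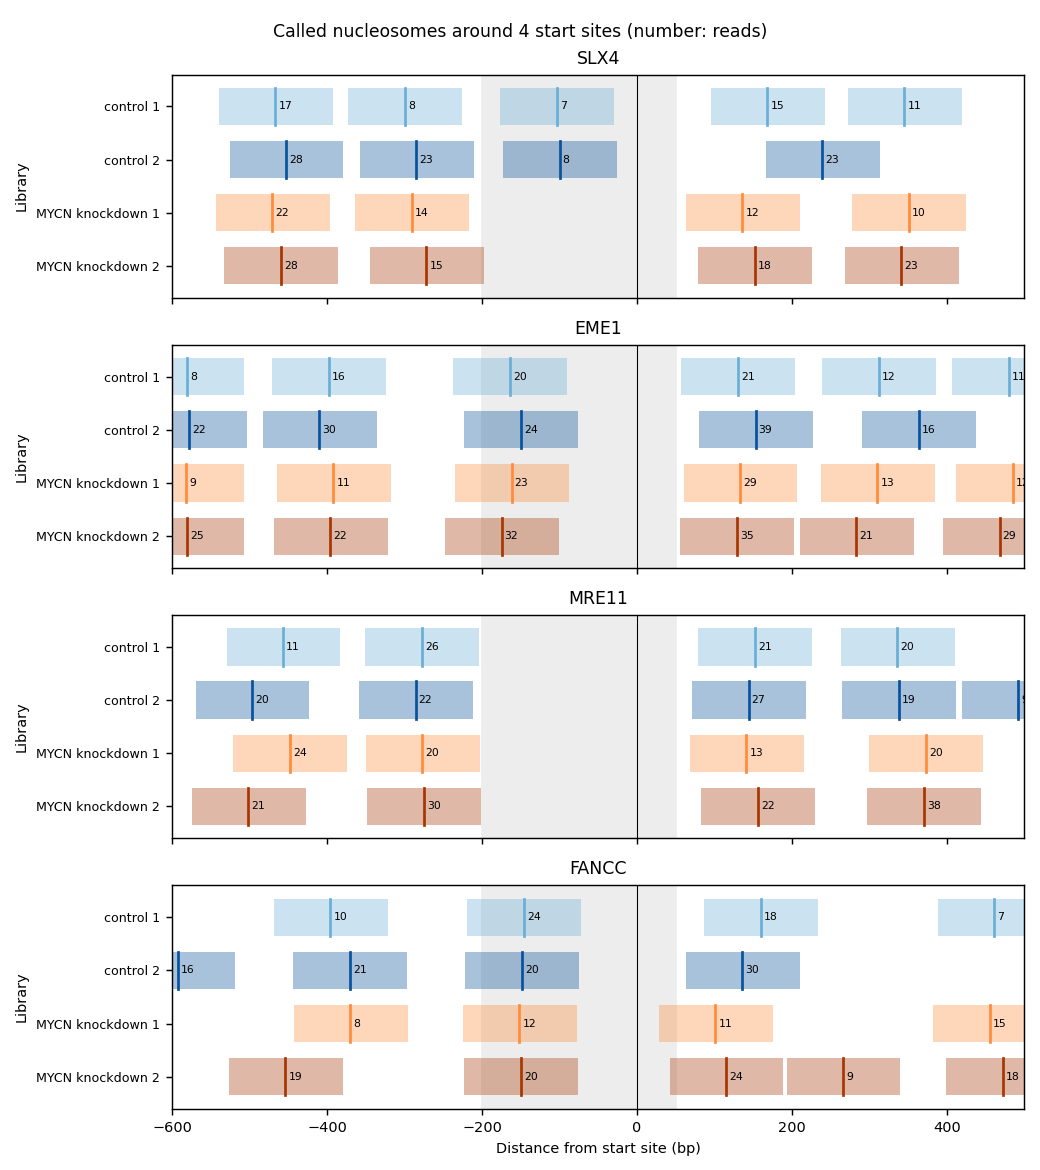
Called nucleosomes (boxes, with the dyad as a line and the reads as a number) by distance from the TSS (bp, x axis) in each library (rows) for SLX4, EME1, MRE11 and FANCC, with the window around the TSS (-200 to 50 bp) shaded. SLX4 has a box in the window in the controls only, MRE11 in none of the 4 libraries, and EME1 and FANCC keep a nucleosome across the upstream edge of the window in all 4.

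Promoter occupancy, the reads of all nucleosomes with a dyad in the 2 kb before the TSS or the 1 kb after it, did not pass the test in any repair gene. The edgeR quasi-likelihood test called 0 of 20105 promoters at an adjusted p under 0.05 (0.0%), DESeq2 likewise called none, and 633 promoters (3.15%) had an unadjusted p under 0.05. All 51 repair genes were tested, with a lowest adjusted p of 0.9993 (edgeR). The log2 change, knockdown minus control, was above 0 in 35 genes and below 0 in 16, with a median of 0.05 against -6.4e-05 over all promoters and a range from -0.32 to 0.35. The direction of that median rests on single libraries, since it was -0.0063 without knockdown replicate 2, 0.0093 without control replicate 1 and 0.13 without knockdown replicate 1. The median standard error (SE) was 0.15. The median gap between group means was 0.0916 on the log2 scale in the repair genes and 0.105 over all promoters. The median gap between single replicates of a group was 0.20 and 0.17, respectively, and averages over 2 libraries differ less than single libraries when nothing changes. Normalised reads (CPM) of the groups did not overlap in 6 genes with higher and 4 with lower values on knockdown, against a background of 15.0% and 15.3% of all promoters. In either direction that is 19.6% of the repair genes against 30.4% of all promoters.

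RAD51D and EME1 were the only repair genes with an unadjusted p under 0.05. RAD51D, which takes part in homologous recombination in a complex with XRCC2, had 266 and 438 promoter reads in the controls and 232 and 309 in the knockdown libraries. In CPM these were 80.4 and 81.4 against 72.3 and 58.7, so both knockdown libraries lay below both controls, with a log2 change of -0.32 (95% interval -0.60 to -0.03, unadjusted p = 0.029 and adjusted p = 0.9993 in edgeR). EME1, the partner of the nuclease MUS81, had 190 and 343 reads in the controls and 236 and 399 in the knockdown libraries. Its CPM of 57.4 and 63.7 against 73.5 and 75.8 did not overlap either, with a log2 change of 0.30 (95% interval 0.02 to 0.58, unadjusted p = 0.038 and adjusted p = 0.9993 in edgeR). That is 1 gene in each direction, where 1.58% of all promoters were higher and 1.57% lower at that threshold. Without knockdown replicate 2 the log2 change of RAD51D was -0.16, and with DESeq2 neither gene had an unadjusted p under 0.05.

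**Figure D3:**
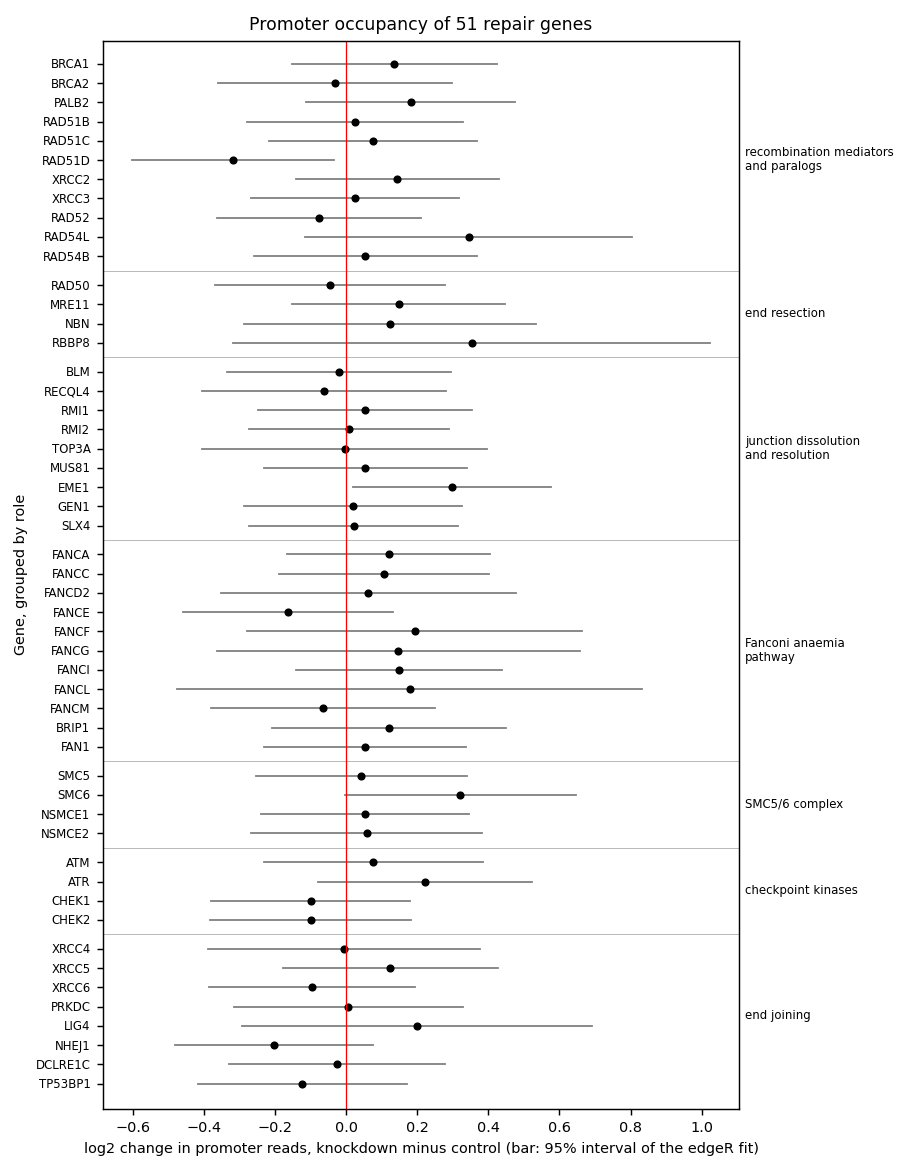
log2 change in promoter reads, MYCN knockdown minus control (x axis), for each of the 51 repair genes grouped by role (y axis), with points for the edgeR estimate. Bars give a 95% interval worked out from that estimate and its test statistic. The intervals of RAD51D, below 0, and EME1, above 0, are the only ones that leave out 0, and no gene passed the adjusted threshold.

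Among the recombination mediators and paralogs, 8 of 11 had an empty window in all 4 libraries, and the median gap from the +1 dyad to the next dyad upstream was 433 bp, against 289 bp over all genes. BRCA1, which opens the way to resection and brings in PALB2 and BRCA2, had gaps of 436 and 418 bp in the controls and 448 and 453 bp in the knockdown libraries. BRCA2, a central mediator of homologous recombination, had gaps of 319, 412, 322 and 382 bp in the order control replicates 1 and 2, then knockdown replicates 1 and 2, which is the order of all runs of 4 values from here on. The BRCA1 values lay within 35 bp of each other, whereas those of BRCA2 spread over 93 bp with both groups overlapping.

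Of the 3 widest mean gaps of the list, 2 were in this group. RAD54L, a motor protein that acts during strand invasion, had gaps of 576, 701, 598 and 672 bp and 71, 151, 91 and 183 promoter reads. RAD52, which anneals single strands, had gaps of 728, 580, 545 and 573 bp over the stretch printed above. The higher value of RAD52 in control replicate 1 came from an upstream dyad at -606 bp, where the other 3 libraries had it between -436 and -418 bp. RAD54B, a relative of RAD54L, had gaps of 347, 364, 395 and 378 bp. RAD54L had a log2 change in promoter reads of 0.34 (SE 0.23, unadjusted p = 0.14 in edgeR), and its groups did not overlap in CPM.

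RAD51C, RAD51D and XRCC2, all recombination genes, had a nucleosome in the window in some libraries. In XRCC2 it lay at -96 bp with 8 reads, in knockdown replicate 2 only. In RAD51C it lay at -15 bp with 11 reads in control replicate 1 and at -133 bp with 19 reads in knockdown replicate 2, and the RAD51C window was empty in the other two. In RAD51D it lay at -3 bp with 9 reads in control replicate 1, and at -24 bp with 7 and at -22 bp with 9 reads in the knockdown libraries. A further RAD51D nucleosome lay across the upstream edge of the window in every library, at -183, -187, -200 and -193 bp. The mean gap of RAD51D was 224 bp, among the 3 narrowest of the list.

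In end resection, which prepares the ends for recombination, 3 of 4 genes were empty in every library. MRE11, the nuclease of the complex with RAD50 and NBN, had one of the steadiest promoters, with gaps of 430, 430, 418 and 431 bp. NBN, which links that complex to ATM, had gaps of 401, 379, 732 and 372 bp, and its mean change of 162 bp (SE 140) came from knockdown replicate 1. RBBP8, the cofactor of MRE11 known as CtIP, had few reads, 56 and 95 in the controls and 72 and 115 in the knockdown libraries, and no +1 dyad was called for it in knockdown replicate 1. Its log2 change of 0.35 was the highest of the list and had the widest interval, from -0.32 to 1.02.

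RAD50, the coiled-coil partner of MRE11, had a +1 dyad at 44 and 87 bp in the controls and at 141 and 132 bp in the knockdown libraries. The groups did not overlap, and the mean position differed by 71 bp (SE 20, unadjusted p = 0.031 and adjusted p = 0.77 in limma). In knockdown replicate 1 that nucleosome held 7 reads. The RAD50 window was filled only in the deeper replicate of each group, at -69 and -78 bp with 9 reads in both. In control replicate 1 the +1 nucleosome at 44 bp held 14 reads and had 54.4% of its length in the window.

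Of the genes that dissolve or cut joined DNA molecules, 3 of 9 were empty in all 4 libraries and 8 of the 9 had a divergent neighbour. BLM, the helicase of the dissolvasome, and its partners RMI1 and RMI2 were empty in all 4. The next dyad upstream of BLM lay at -332, -337, -332 and -326 bp, within 11 bp, while its +1 dyad was at 194 and 189 bp in the replicate 1 libraries and at 122 and 110 bp in the replicate 2 libraries. The BLM +1 positions of the groups thus overlapped. TOP3A, the topoisomerase of the same complex, had its +1 dyad at 232, 224, 121 and 186 bp, a mean change of -74.5 bp (SE 27, unadjusted p = 0.065 in limma).

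SLX4 was also the only repair gene whose gap had an unadjusted p under 0.05. The gap was 272 and 339 bp in the controls and 427 and 424 bp in the knockdown libraries, a difference of 120 bp (SE 36, unadjusted p = 0.037 and adjusted p = 0.98 in limma). The nucleosome missing on knockdown and the gap are the same event measured in 2 ways. Its +1 dyad was at 168, 239, 136 and 152 bp, and its promoter reads of 205, 276, 206 and 268 differed little between groups, with a log2 change of 0.02 (SE 0.15).

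EME1 had a well defined nucleosome at -164, -150, -162 and -175 bp with 20, 24, 23 and 32 reads, so its nucleosome was present in every library. From 67.3% to 84.4% of it lay in the window, and only control replicate 2 passed the 80% rule. The gap of EME1 was 294, 303, 295 and 304 bp. GEN1, a Holliday junction resolvase, had a nucleosome at -146, -143 and -143 bp in all libraries except knockdown replicate 1. Seen from SMC6, the same nucleosome lay at -182, -185 and -185 bp, outside the window by the 80% rule, so GEN1 was called filled and SMC6 empty over 1 shared nucleosome. MUS81 and RECQL4, a nuclease and a helicase, had a nucleosome that filled the window only in knockdown replicate 2, with 7 and 6 reads.

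In the Fanconi anaemia pathway, 6 of 11 genes were empty in all 4 libraries: FANCA, FANCD2, FANCF, FANCL, FANCM and BRIP1. FANCC, a subunit of the core ubiquitin ligase, was the exception of the whole list, with a nucleosome at -146, -149, -152 and -150 bp and 24, 20, 12 and 20 reads. Between 83.0% and 87.1% of it lay in the window, so it too sat at the upstream edge and not over the TSS. Reads in the FANCC window had a log2 change of -0.49 (SE 0.42, unadjusted p = 0.31 in edgeR), and the groups touched at 20 reads.

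FANCA, another core subunit, had its +1 dyad at 146 and 150 bp in the controls and at 114 and 84 bp in the knockdown libraries. The groups did not overlap, and the mean shift was -49 bp (SE 15, unadjusted p = 0.043 and adjusted p = 0.88 in limma). FANCD2 and FANCI, the pair that is ubiquitinated at a crosslink, had +1 dyads at 130, 129, 110 and 121 bp and at 114, 129, 150 and 144 bp. The values of FANCD2 were lower and those of FANCI higher in both knockdown libraries than in both controls, by 14 bp and 25.5 bp in the mean, and neither had an unadjusted p under 0.05 in limma. FANCE, the bridge to FANCD2, had 199, 269, 173 and 234 promoter reads, a log2 change of -0.16 (SE 0.15). FAN1, a nuclease that acts on crosslinks, had a mean gap of 233 bp. Its window was filled in the deeper library of each group only, at -29 and -52 bp with 9 reads in both. In knockdown replicate 1 a FAN1 nucleosome at 28 bp with 13 reads had 65.3% of its length in the window.

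For the SMC5/6 complex, 3 of 4 genes, SMC6, NSMCE1 and NSMCE2, were empty in all 4 libraries. A nucleosome nonetheless lay partly in the window in each library, with 46.9% to 57.8% of its length in NSMCE1 and 53.1% to 65.3% in NSMCE2. SMC5 had a nucleosome in the window in the deeper replicate of each group, at -61 bp with 6 reads and at -80 bp with 10 reads. Its gap was 565 and 615 bp in the shallower libraries and 222 and 262 bp in the deeper ones, which are also the replicate 1 and the replicate 2 libraries, and the groups overlapped. SMC6 had 103 and 246 promoter reads in the controls and 143 and 277 in the knockdown libraries, with a log2 change of 0.32 (95% interval -0.005 to 0.65, unadjusted p = 0.053 in edgeR), and its CPM of 31.1, 45.7, 44.6 and 52.6 overlapped.

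Of the checkpoint kinases, only ATM was empty in all 4 libraries. ATM, which responds to double-strand breaks, had gaps of 397, 696, 703 and 690 bp, with the narrow value in control replicate 1, where a dyad was called at -278 bp. ATR, which responds to single-stranded DNA, had gaps of 370, 186, 522 and 285 bp and 131, 256, 176 and 255 promoter reads, a log2 change of 0.22 (SE 0.15). CHEK1 had a nucleosome on the TSS in 3 libraries, at -25, -13 and -26 bp with 8, 13 and 18 reads, and none there in knockdown replicate 1. Its gap was 175, 175, 359 and 166 bp, and its mean of 219 bp was the narrowest of the list. CHEK2, the effector kinase of ATM, had 1 narrow gap, 183 bp in control replicate 2, and gaps of 496, 495 and 488 bp in the other libraries. In each of ATM, CHEK1 and CHEK2, 1 library stood apart and set the mean change.

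In end joining, 5 of 8 genes were empty in all 4 libraries. XRCC6 and XRCC5, the Ku subunits that bind the broken ends, had gaps of 506, 511, 526 and 513 bp and of 519, 492, 511 and 584 bp. Their +1 dyads lay within 21 bp for XRCC6 and 9 bp for XRCC5, whereas the gaps of XRCC5 ran from 492 to 584 bp. PRKDC, the catalytic subunit of DNA-PK, had a nucleosome in the window at -35 bp with 6 reads in control replicate 1 and at -52 bp with 7 reads in knockdown replicate 2. TP53BP1, which holds back resection, was empty throughout, with gaps of 414, 400, 523 and 422 bp. NHEJ1, the ligase cofactor XLF, had 240 and 395 promoter reads in the controls and 209 and 326 in the knockdown libraries, a log2 change of -0.20 (SE 0.14, unadjusted p = 0.15 in edgeR) without overlap in CPM. LIG4, the ligase itself, had no +1 dyad in any library at its canonical start.

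**Figure D4:**
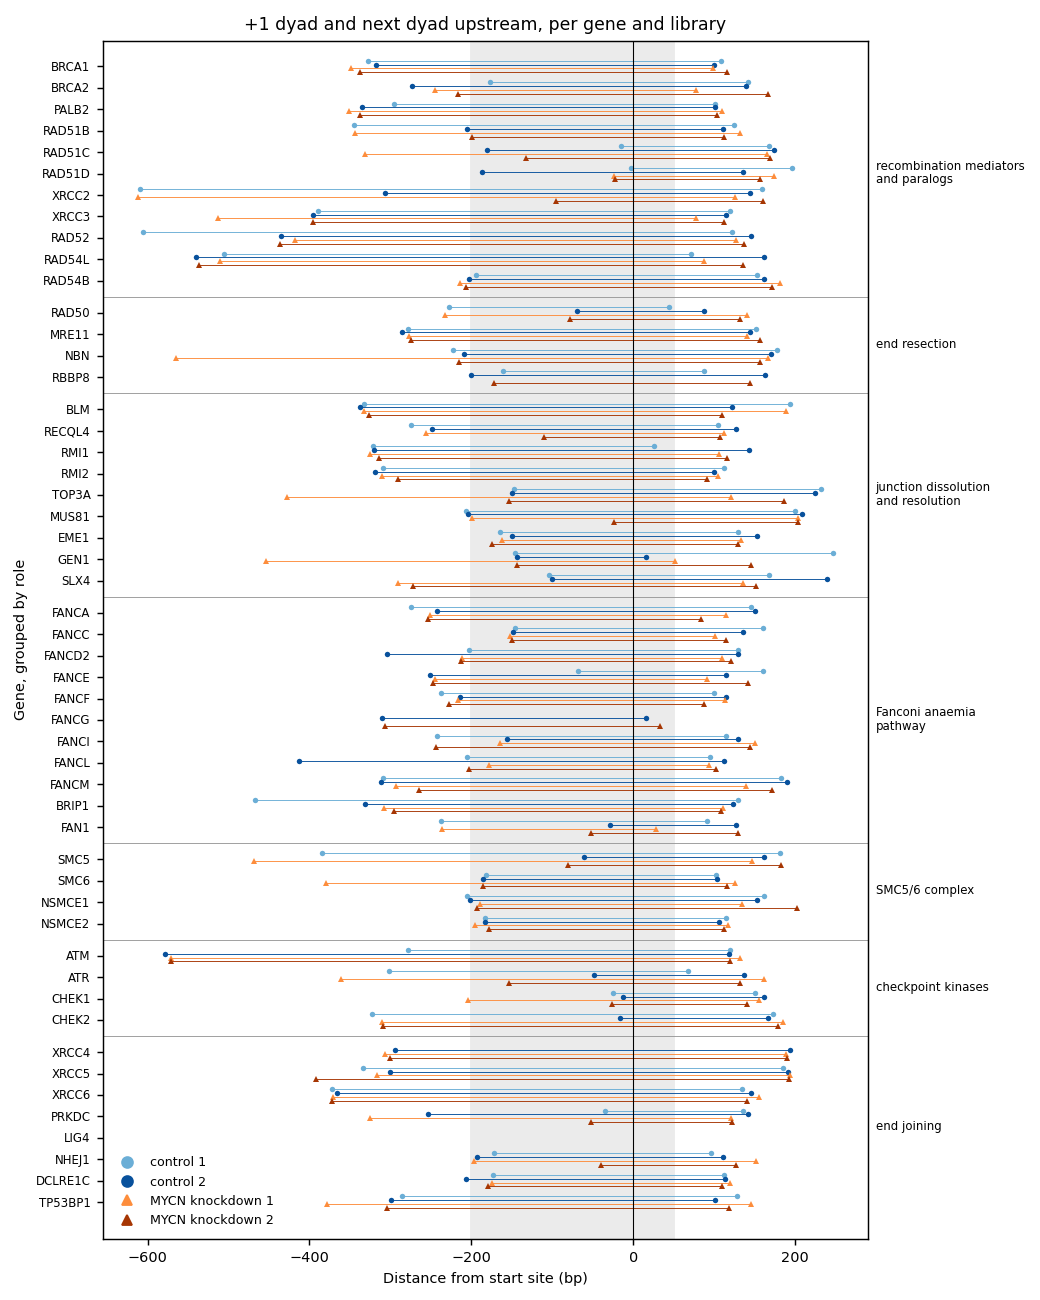
Position of the +1 dyad and of the next dyad upstream (bp from the TSS, x axis), joined by a line, for each of the 51 repair genes grouped by role (y axis) and each library (colour and symbol), with the window around the TSS (-200 to 50 bp) shaded. Genes without a called +1 dyad in a library have no symbol there, and most lines cross the shaded window without a dyad inside it.

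Across the list, the +1 nucleosome was found in all 4 libraries in 47 of 51 genes, with RBBP8, FANCG, XRCC4 and LIG4 missing it in at least 1. Its median position was 130, 136.5, 129.5 and 132 bp, against 119, 121, 121 and 121 bp over all genes. The limma test called 0 of 15915 genes (0.0%), and 857 (5.38%) had an unadjusted p under 0.05, among them 2 of the 47 repair genes, RAD50 and FANCA. The median change was -4.0 bp against 0.5 bp over all genes, and it was -1.5 bp without control replicate 1, -0.5 bp without control replicate 2 and 1.5 bp without knockdown replicate 1, so its direction rests on single libraries. The range of a gene over the 4 libraries had a median of 26 bp, against 49 bp over all genes, and the median gap between group means was 10.5 bp against 15.5 bp over all genes.

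The gap over the TSS was wide in the repair genes in every library, with medians of 374.5, 375, 429 and 339.5 bp against 299, 278, 307 and 277 bp over all genes. It exceeded 350 bp on average in 29 of 47 genes (61.7%), against 32.3% of all genes. Unlike the +1 position, the gap of a gene ranged more widely over the 4 libraries, with a median range of 144 bp against 119 bp over all genes. The limma test called 0 of 15901 genes (0.0%), 632 (3.97%) had an unadjusted p under 0.05, and SLX4 was the 1 repair gene among them. Repair genes with a divergent neighbour had a median mean gap of 409 bp and those without one 361 bp. The corresponding values over all genes were 355 and 272 bp. Among repair genes without a divergent neighbour, 52.0% were empty in all 4 libraries, against 27.0% of all such genes. With a divergent neighbour the shares lay closer together, at 61.54% of the repair genes against 51.55% of all such genes.

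Reads within the window could be tested in 10 repair genes, since the others had a mean under 10 reads there, and edgeR called 0 of 10230 promoters (0.0%) with 255 (2.49%) at an unadjusted p under 0.05, none of them a repair gene, while DESeq2 called 2 promoters. Reads of nucleosomes with a dyad 1 to 250 bp downstream of the TSS were tested in 47, and edgeR called 0 of 17233 (0.0%) with 429 (2.49%) at an unadjusted p under 0.05, again none of them a repair gene, while DESeq2 called 11. In MUS81 these +1 reads were 6 and 14 in the controls and 15 and 19 in the knockdown libraries (log2 change 0.87, SE 0.47, unadjusted p = 0.12). Fuzziness, the SD in bp of the read midpoints around a dyad, was averaged over each promoter and changed by between -3.77 and 3.80 bp, with a median of -0.27 bp. The limma test called 0 of 20044 promoters (0.0%), 298 (1.49%) had an unadjusted p under 0.05, and no repair gene was among them. FANCD2 had the highest change, with 29.2 and 31.6 bp in the controls and 34.0 and 34.3 bp in the knockdown libraries (unadjusted p = 0.088 in limma).

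A further 66 genes of the same pathways that are not on the list were measured in the same way. In promoter occupancy edgeR called none of the 66, 34 had a log2 change above 0 and 32 below, and the median was 0.008. The window was empty in all 4 libraries in 37 of 66 genes, no gene of 41 lost an empty window and 3 of 46 formed one. The median mean gap was 365.2 bp in these genes and 365.5 bp in the 51. The CpG ratio was above 0.6 in 63 of the 66 (95.5%), with a median of 0.899. A start site on the opposite strand lay within 1 kb upstream of 28 (42.4%), so the 51 genes are not alone in these traits.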

How the data were processed

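Nucleosome lists of 4 MNase-seq libraries (2 control, 2 MYCN knockdown) were analysed. Per the labels and the methods of the study, the authors trimmed reads with Trim Galore 0.4.4, mapped them to hg19 with Bowtie2 2.2.4 (CASAVA 1.9 is also named in the submitters' processing notes), kept proper pairs, removed PCR duplicates with Samtools, called nucleosomes per library with Genetrack and left out those under 6 reads. Versions of Samtools and Genetrack are not given in the sources used here. The deposited counts are whole numbers of read-pair midpoints per nucleosome and were taken as unscaled, since they are whole and their totals differ between libraries. The methods of the study call this occupancy normalised, and the highest value was 1764 in all 4 libraries, so a scaling or an upper limit cannot be told from the files, and the read values and edgeR tests rest on unscaled counts. The other deposited value, fuzziness, is an SD in bp, a unit set by the authors. Totals of a list count only reads in called nucleosomes, and a deeper library passes the minimum at more places.

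Start sites were those of the canonical transcript in a GENCODE annotation lifted to GRCh37 (19881 of 20162 genes, otherwise the most upstream start). Reads were summed per promoter and tested with edgeR 4.0.16 (quasi-likelihood, TMM, mean of at least 10 reads), and positions and fuzziness with limma 3.58.1, with group as the only term and Benjamini-Hochberg adjustment over all genes tested (R 4.3.3). The SE and 95% intervals given for changes in reads were worked out from the edgeR log2 change and its test statistic. DESeq2 1.42.0 was an alternative. Both fits were run on simulated data whose noise was set in advance and not taken from these libraries. Those runs therefore do not show what size of change could be found here. Empty windows have no test. With 2 libraries per group an exact permutation test of a single value cannot fall below p = 0.333 (two-sided). Motifs and sequences were read from GRCh37.

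The 51 genes, the 66 further genes, their roles and the tests were chosen with earlier results of these data known. Genes named were those whose window changed state, those under an unadjusted p of 0.05 or with the 3 highest or lowest changes in promoter reads, those with the 3 largest changes of the +1 dyad or gap, those with the 3 widest or narrowest gaps, and a preset list of defining genes. MRE11 was on that list, and XRCC6, MUS81, RECQL4, FANCC, GEN1, the RMI genes and others outside the rule were named after their values were seen.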

Additional observations from a re-analysis of the deposited data

How the results depend on the processing

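No repair gene was called in any of the 6 tests under any alternative run, and of 390 alternative values for the 30 named genes 49 had the other sign, 30 of them with a library left out. The count of repair genes with an empty window in every library (29) was 19 when 50% of a nucleosome in the window filled it, and 30 to 33 with a library left out. The counts of windows lost and formed (0 and 1 repair genes, 444 and 483 of all promoters) depended most on the rule. They were 2 (MUS81 and NSMCE1) and 1 with 50%, with 283 lost over all promoters. With a minimum of 10 reads 0 formed, and with the most upstream start 2 formed (GEN1 and SLX4). When a nucleosome in either library of the other group sufficed, 5 were lost and 6 formed, and 1973 and 2075 over all promoters. Leaving out a library gave 0 to 4 lost and 1 to 4 formed, and 878 to 1539 and 1022 to 1536 over all promoters, since 1 library then sets the state of a group. RAD51D was among the lost without control replicate 1, FANCG without knockdown replicate 2, and XRCC2, RECQL4, MUS81 and NHEJ1 without knockdown replicate 1. SLX4 was among the formed in each of these.

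Same-numbered libraries share only a number in the labels. Their deviations from the group means correlated with r = 0.293 over 20105 promoters. With the replicate number as a block, promoter occupancy still had no call, fuzziness had 4 promoters called, and the mean over same-numbered pairs was 4 lost and 6 formed among the repair genes and 2467 and 2604 over all promoters. Fuzziness had 0 to 7 promoters called with a library left out, and promoter occupancy 0 to 1. DESeq2 called 2 promoters for window reads and 11 for +1 reads. With a library left out, the median log2 change ran from -0.0063 to 0.13 in promoter reads and from -0.0021 to 0.19 in +1 reads, and the median +1 shift from -5.0 to 1.5 bp, and the median log2 change of window reads was -0.47 at equal depth. The cause of these moves was not tested.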
